A study of Mus musculus with 28 samples.

Results

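The genes described here are 10 that carry progranulin, prosaposin and lysosomal enzymes to the lysosome or put on the sorting tag that those enzymes need. They were taken by name: Sort1, Psap, Lrp1, M6pr, Igf2r, Sorl1, Sorcs2, Gnptab, Gnptg and Nagpa, out of 53801 genes in the deposited table. All 10 passed the filter on low counts, which left 11123 genes to test. RNA was measured in 28 C57Bl/6J mice, in a hemibrain that kept the cerebellum but not the olfactory bulb. The 4 groups of 7 were Grn,Tmem106b double knockout (DKO) mice given AAV(L):bPGRN, DKO mice given saline, wildtype (WT) mice given AAV(L):bPGRN and WT mice given saline. The vector is a liver-targeting adeno-associated virus that codes for human progranulin joined to 8D3, an antibody fragment against the transferrin receptor of the mouse. It was given once into the tail vein at 6 weeks of age at 1.3e+13 vector genomes per kg, saline was 0.9% NaCl, and brains were taken 9 to 10 weeks later, at 15 to 16 weeks of age. There were 3 males and 4 females per DKO group and 4 males and 3 females per WT group. All groups were spread over 4 batches. Batch 4 differed in age between groups, at 16 weeks for DKO saline mice and 15.5 weeks for the rest. The design asks what loss of both genes does to brain transcripts and how much of it the vector alters.

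Progranulin, the product of Grn, is secreted and reaches the lysosome by more than one route. Sortilin, coded by Sort1, binds it at the cell surface and in the secretory pathway, and prosaposin, coded by Psap, binds it and takes it along to the receptors that prosaposin itself uses, such as LRP1 and the mannose-6-phosphate receptors. Most soluble lysosomal enzymes travel by the mannose-6-phosphate receptors, whose ligand is made in the Golgi by the enzymes that Gnptab, Gnptg and Nagpa code for. Tmem106b codes for a lysosomal membrane protein, and loss of progranulin is a known cause of lysosomal disease and of microglial activation in the brain.

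Libraries held 1164637 to 2389815 counts. One tag is read near the 3' end of each molecule, so a level, given below as CPM after TMM scaling (counts scaled to a common library size), does not grow with transcript length. Tmem106b stood at 6.59 to 12.5 CPM in DKO AAV mice and 7.38 to 20.1 CPM in DKO saline mice, against 101 to 143 CPM in WT AAV mice and 75.6 to 149 CPM in WT saline mice, so every library matched its genotype label at that gene. Grn averaged 126 ± 27.9 CPM in DKO AAV mice, 192 ± 66.7 in DKO saline mice, 175 ± 32.5 in WT AAV mice and 181 ± 73.9 in WT saline mice (SD, n = 7 each). Its 3' tags did not separate the genotypes, and, with the deleted part of the gene unknown here, they check nothing. Human progranulin RNA from the vector was not analysed here. All 7 neuronal, 7 astrocyte, 7 microglial and 7 oligodendrocyte markers were detected in every library. In whole-tissue RNA, fewer cells of a type and less RNA per cell cannot be told apart.

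Psap was by far the most abundant of the 10 genes, with 770 to 3100 counts per library, and Nagpa the least, with 7 to 50. Mean levels in WT saline mice were 915 CPM for Psap, 166 for Sorl1, 158 for Lrp1, 115 for Sort1, 46.7 for M6pr, 45.9 for Gnptg, 42.1 for Gnptab, 28.4 for Sorcs2, 19.2 for Igf2r and 12.2 for Nagpa. Neighbours from Sorl1 to Lrp1 and from M6pr to Gnptab lay within 1 SD of each other in that order. Counts were deposited to no more than 2 significant digits, which moves the 123 of 280 member values of 100 or more by up to 4.55%.

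**Figure D1:**
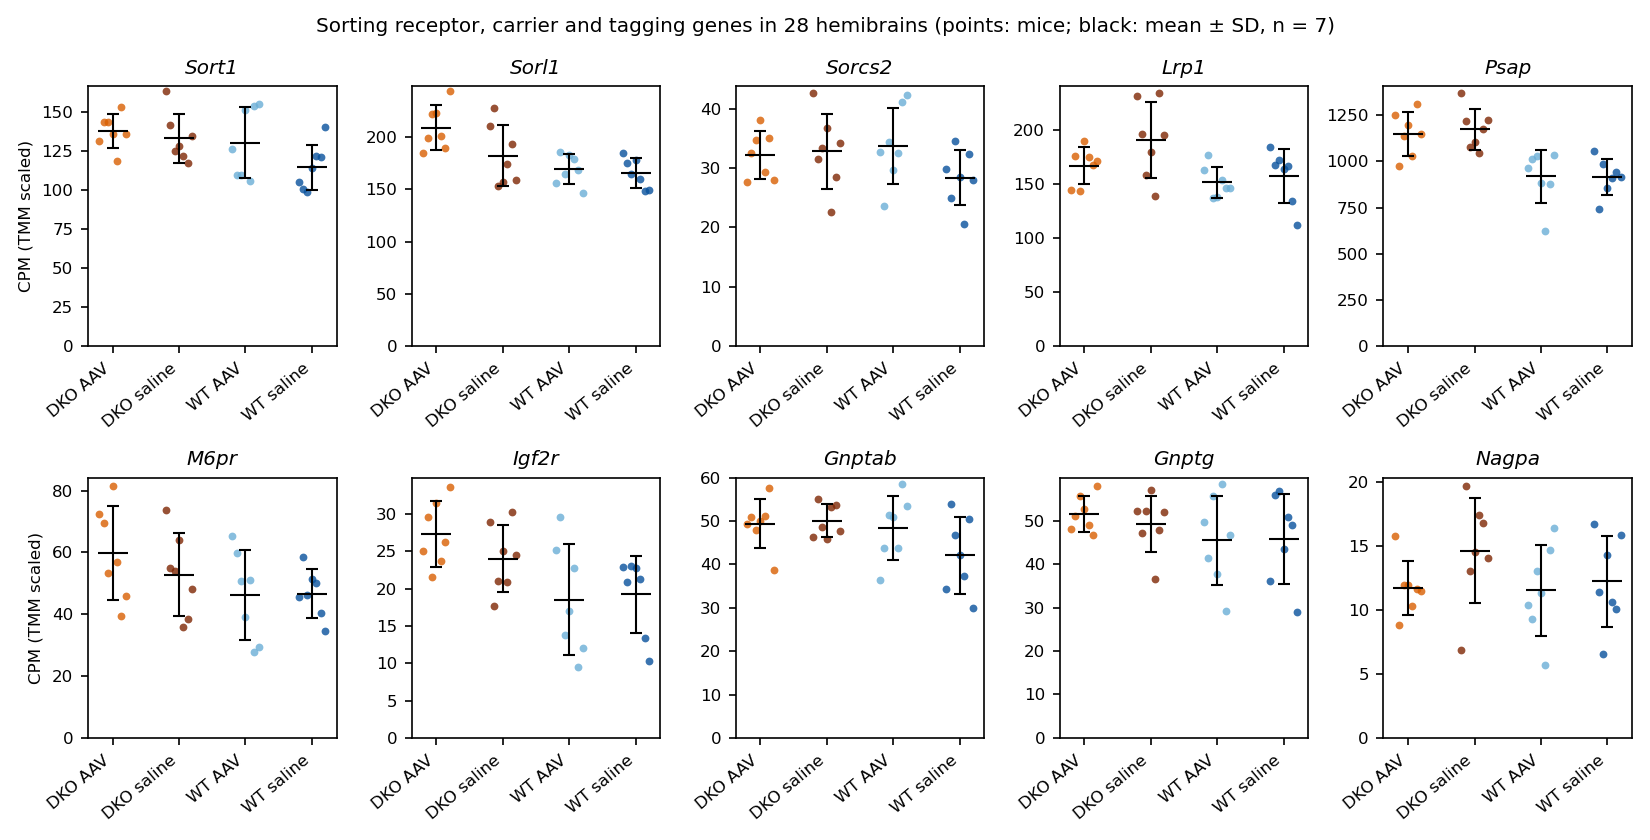
CPM of the 10 genes in each mouse (points) of the 4 groups, with the group mean and SD (n = 7) in black; each panel has its own axis from 0. Psap lies between 973 and 1370 CPM in both DKO groups and between 625.2 and 1055 CPM in both WT groups, and no gene separates AAV from saline within a genotype.

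The start regions can be read beside the levels. RefSeq promoter windows (GRCm38.p6), 250 bases before to 50 after a gene's start, were held for 7 of the 10 genes. Sort1, M6pr and Sorcs2 had no entry. Each window was searched on both strands for CACGTG, the E-box that factors of the MiT/TFE family such as TFEB are known to bind, and for TCACGTGA, a longer form that contains it and resembles the element shared by many lysosomal genes. CACGTG was present in 7.15% of all 32851 windows and TCACGTGA in 0.974%. Of the 7 genes, taking the start nearest to the deposited gene model, 4 held CACGTG (Igf2r, Sorl1, Gnptg and Nagpa) and 2 held TCACGTGA (Igf2r and Gnptg). A match is a string of letters and not a measured binding site. The windows of Igf2r, Gnptg, Sorl1 and Psap are shown because the first pair holds the longer form, Sorl1 the short form only, and Psap, the most abundant of the 10 genes, neither; capitals mark CACGTG, and all are written along the gene's own strand.
Igf2r (chr17:12769657-12769956, minus strand): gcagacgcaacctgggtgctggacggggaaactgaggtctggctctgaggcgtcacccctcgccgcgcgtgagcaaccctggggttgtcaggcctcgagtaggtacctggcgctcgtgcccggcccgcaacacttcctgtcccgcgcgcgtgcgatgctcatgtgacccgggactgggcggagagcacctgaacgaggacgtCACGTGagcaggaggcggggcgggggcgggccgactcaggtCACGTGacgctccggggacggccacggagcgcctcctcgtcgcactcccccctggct
Gnptg (chr17:25240067-25240366, minus strand): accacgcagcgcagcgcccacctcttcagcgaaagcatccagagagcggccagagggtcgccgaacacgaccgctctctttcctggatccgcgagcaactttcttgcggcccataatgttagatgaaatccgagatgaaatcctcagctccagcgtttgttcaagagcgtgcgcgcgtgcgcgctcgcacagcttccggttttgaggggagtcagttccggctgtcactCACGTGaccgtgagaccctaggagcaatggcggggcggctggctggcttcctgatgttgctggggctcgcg
Sorl1 (chr9:42124248-42124547, minus strand): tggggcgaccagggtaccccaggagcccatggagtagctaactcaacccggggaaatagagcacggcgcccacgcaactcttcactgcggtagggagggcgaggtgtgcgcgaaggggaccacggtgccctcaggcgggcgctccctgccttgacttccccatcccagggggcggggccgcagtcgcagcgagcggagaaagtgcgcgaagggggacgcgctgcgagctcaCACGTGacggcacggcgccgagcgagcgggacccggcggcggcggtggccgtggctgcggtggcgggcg
Psap (chr10:60277378-60277677, plus strand): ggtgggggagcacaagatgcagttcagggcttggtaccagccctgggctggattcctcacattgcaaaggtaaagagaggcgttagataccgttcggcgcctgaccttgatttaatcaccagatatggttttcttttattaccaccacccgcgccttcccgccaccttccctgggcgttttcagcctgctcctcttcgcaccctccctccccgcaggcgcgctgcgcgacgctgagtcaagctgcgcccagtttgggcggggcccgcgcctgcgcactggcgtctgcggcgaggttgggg
Counting the first transcribed base as 1, the motif began 48 and 7 bases before the start of Igf2r, 21 bases before that of Gnptg and 19 bases before that of Sorl1.

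In DKO mice given saline, against WT mice given saline, transcripts of the prosaposin gene were 1.26 times as high and the fitted values of the other 9 genes lay above 0 without passing the test. Of the 10 genes, 1 was called higher and none lower by edgeR's quasi-likelihood test at a Benjamini-Hochberg adjusted p of 0.05 over all genes, where 6.9% of the 11123 genes were called in either direction and 3.62% higher. The log2 fold changes of the 10 genes ran from 0.16 to 0.36 with a median of 0.24, beside a median of 0.00 over all genes tested, and 4 of the 10 had an unadjusted p under 0.05, as had 2328 of the 11123 genes tested.

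Psap had 1046, 1175 and 1370 CPM as the lowest, median and highest of the DKO saline mice, against 740, 915 and 1055 CPM in the WT saline mice. In 6 of the 7 DKO saline mice it was above the highest WT saline mouse, and the groups overlapped by a narrow margin. The gene codes for prosaposin, the precursor of the saposins that activate sphingolipid hydrolases, and was 1.26 times higher in DKO saline mice (log2 fold change 0.34 ± 0.09 SE, edgeR quasi-likelihood adjusted p = 0.0236). Within batches 1 to 4 the difference in mean log2 CPM was 0.38, 0.51, 0.29 and 0.29, on 1 to 4 mice a group. The adjusted p was 0.0537 to 0.0696 when DKO saline replicate 1, DKO saline replicate 2 or WT saline replicate 2 was left out, with log2 fold changes of 0.29 to 0.32.

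The other routes of progranulin did not pass. Sort1, the sortilin gene, had 117, 128 and 163 CPM as lowest, median and highest in DKO saline mice, against 98.7, 114 and 140 CPM in WT saline mice. Every DKO saline mouse was above the WT saline median, the ranges overlapped widely, and the log2 fold change was 0.19 with a 95% interval of -0.01 to 0.40 (edgeR quasi-likelihood adjusted p = 0.274). Lrp1, a large endocytic receptor of neurons and glia, ran from 140 to 235 CPM with a median of 196 in DKO saline mice, against 112 to 185 CPM with a median of 167 in WT saline mice, with a log2 fold change of 0.30 (0.07 to 0.52, edgeR quasi-likelihood adjusted p = 0.104).

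Among the mannose-6-phosphate receptors, M6pr, which codes for the small cation-dependent receptor, had 35.8, 53.9 and 73.8 CPM as lowest, median and highest in DKO saline mice, against 34.5, 46.1 and 58.6 CPM in WT saline mice. The ranges nearly coincided at the low end, and the log2 fold change was 0.33 (95% interval 0.07 to 0.60, edgeR quasi-likelihood adjusted p = 0.125). Igf2r, the large cation-independent receptor, which also binds IGF2, ran from 17.7 to 30.2 CPM in DKO saline mice, against 10.3 to 23.0 CPM in WT saline mice, with a log2 fold change of 0.36 (-0.05 to 0.76, edgeR quasi-likelihood adjusted p = 0.304). Its within-batch differences were 0.33, -0.29, -0.07 and 1.02, and without batch 4 the value turned to -0.04. The remaining VPS10 receptors and tag enzymes had log2 fold changes of 0.16 to 0.25, with adjusted p from 0.200 to 0.607 by the same test. Of these, Nagpa turned to -0.06 without batch 2 and to -0.08 without the 3 libraries with little cerebellar or striatal RNA.

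In mice given the vector, which share no libraries with the comparison above, DKO mice were higher than WT mice at 4 of the 10 genes and lower at none, where 5.92% of all genes tested were called in either direction and 1.96% higher. The 4 were Psap, both mannose-6-phosphate receptors and Sorl1. The median log2 fold change of the 10 was 0.18, beside 0.01 over all genes. Both comparisons came from one fit with the same batches.

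Psap had 973, 1147 and 1313 CPM as lowest, median and highest in DKO AAV mice, against 625.2, 964 and 1036 CPM in WT AAV mice. All 7 DKO AAV mice were above the WT AAV median and 5 above the highest WT AAV mouse, so the groups overlapped. Its log2 fold change was 0.31 ± 0.09 SE (edgeR quasi-likelihood adjusted p = 0.0407), with within-batch differences of 0.37, 0.04, 0.69 and 0.28.

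M6pr had 39.4, 56.7 and 81.5 CPM as lowest, median and highest in DKO AAV mice, against 27.8, 50.8 and 65.2 CPM in WT AAV mice. The groups overlapped over most of their range, with 3 DKO AAV mice above the highest WT AAV mouse, and the fitted log2 fold change was 0.49 ± 0.13 SE (edgeR quasi-likelihood adjusted p = 0.0188). The level of M6pr also differed between batches, with means of 64.3 CPM in batch 1 and 41.9 CPM in batch 4, and the differences within batches were 0.15, 0.14, 0.85 and 0.69. Without the sex and batch terms none of the 10 genes was called in this comparison.

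Igf2r had 21.6, 26.3 and 33.7 CPM as lowest, median and highest in DKO AAV mice, against 9.53, 17.0 and 29.5 CPM in WT AAV mice. The lowest DKO AAV mouse was above the WT AAV median, and the log2 fold change of 0.62 ± 0.19 SE had an adjusted p of 0.0482 by edgeR's quasi-likelihood test. This difference sat in the later batches, with -0.01, 0.31, 0.65 and 1.28 in batches 1 to 4. In batch 4 the WT mice had the lowest Igf2r levels of the study, at 9.53 and 12.1 CPM in WT AAV mice and 10.3 and 13.5 CPM in WT saline mice, on 11 to 20 counts a library. Without batch 4 the log2 fold change was 0.34 (edgeR quasi-likelihood adjusted p = 0.460).

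Sorl1 codes for SORLA, a VPS10 receptor that shuttles cargo such as the amyloid precursor protein between endosomes and the Golgi. It had 184, 201 and 244 CPM as lowest, median and highest in DKO AAV mice, against 147, 169 and 186 CPM in WT AAV mice. In 6 of 7 DKO AAV mice it was above the highest WT AAV mouse. The log2 fold change was 0.32 ± 0.09 SE (edgeR quasi-likelihood adjusted p = 0.0328), and the differences in batches 1 to 4 were 0.24, 0.26, 0.30 and 0.42.

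These calls lay near the threshold and depended on single libraries. Leaving out DKO AAV replicate 4 ended all 4. That mouse had the lowest RNA integrity number (RIN) of the study, 8.3, and was the only DKO AAV mouse in batch 3. With RIN as a term the calls of Psap, Igf2r and Sorl1 were lost. The call of Psap was also lost without DKO AAV replicates 1, 3, 6 or 7 or WT AAV replicates 1, 4, 5 or 6, that of M6pr without WT AAV replicate 6, and that of Sorl1 without DKO AAV replicates 3, 5 or 7 or WT AAV replicates 1, 3 or 7, while that of Igf2r held only on leaving out DKO AAV replicates 1 or 3, DKO saline replicates 2, 3 or 6, WT AAV replicates 2 or 5 or WT saline replicates 6 or 7 and was lost for the other 19 libraries. Over those omissions the log2 fold changes were 0.24 to 0.32 for Psap, 0.43 to 0.45 for M6pr, 0.50 to 0.69 for Igf2r and 0.27 to 0.32 for Sorl1, and the highest adjusted p was 0.159. The 6 genes not called were Sort1, Lrp1, Sorcs2, Gnptab, Gnptg and Nagpa, with log2 fold changes of -0.08 to 0.21.

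**Figure D2:**
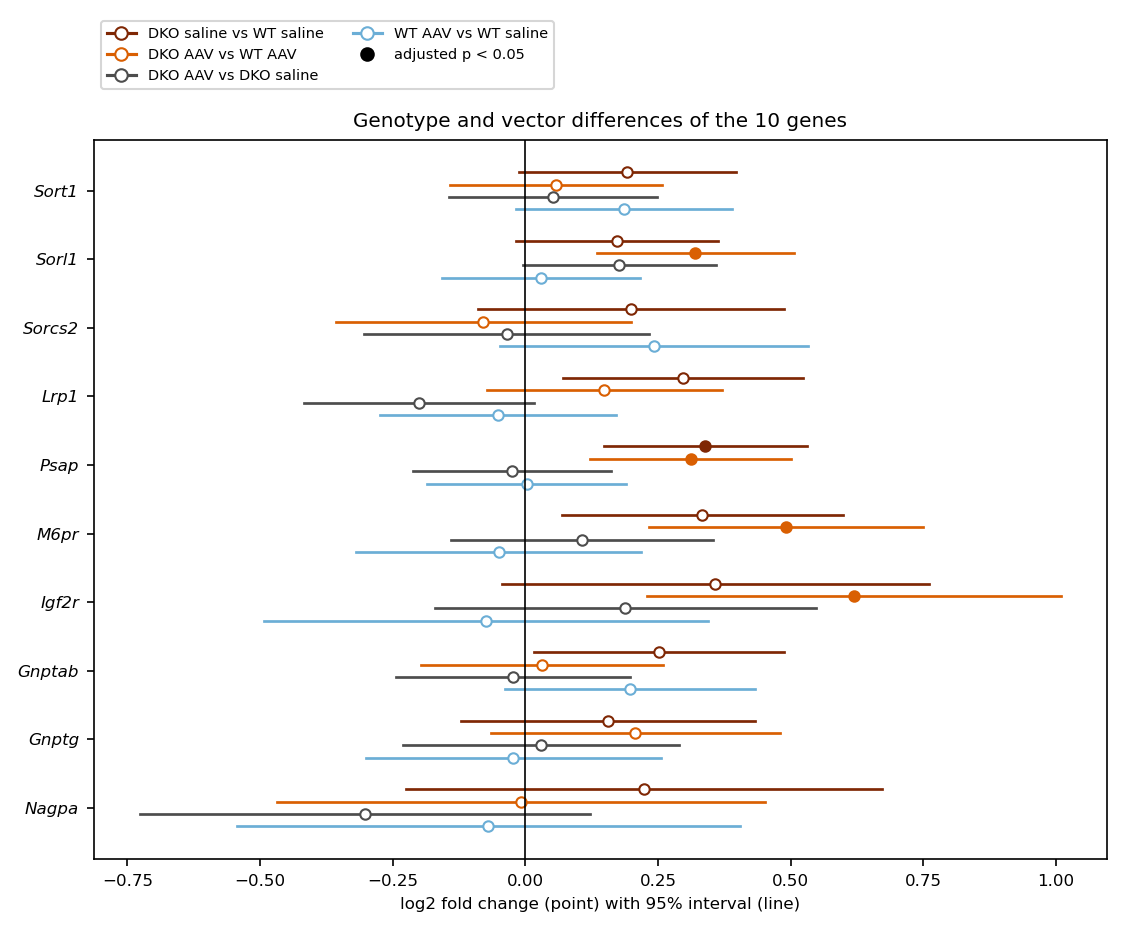
Log2 fold changes of the 10 genes (points) with 95% intervals (lines) for DKO against WT in saline and in vector-treated mice and for vector against saline in each genotype; filled points have an adjusted p under 0.05. Psap is filled in both genotype comparisons at 0.34 and 0.31, M6pr, Igf2r and Sorl1 are filled in vector-treated mice, and no vector comparison has a filled point.

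Averaging the genotype difference over both treatments, a comparison added after the values had been seen and made from the same libraries, gave 4 of 10 genes higher and none lower, where 13.6% of all genes were called in either direction and 5.95% higher. Psap was higher by 0.33 ± 0.07 SE (log2; edgeR quasi-likelihood adjusted p = 0.00105), and it was called under each of the 43 alternative settings run for this average. M6pr was higher by 0.41 ± 0.09 (adjusted p = 0.00235 in the same edgeR test), Igf2r by 0.49 ± 0.14 (adjusted p = 0.0176) and Sorl1 by 0.25 ± 0.07 (adjusted p = 0.0112). No single library ended any of these 4 calls. Leaving out batch 4 ended 3 of them, with log2 fold changes of 0.15 for Igf2r, 0.34 for M6pr and 0.23 for Sorl1 and adjusted p of 0.578, 0.0520 and 0.0915. M6pr was also lost without the sex and batch terms (0.29, adjusted p = 0.153 by edgeR), and Sorl1 with RIN as a term, without batch 2 and without the 3 libraries with little cerebellar or striatal RNA (0.21, 0.23 and 0.17, adjusted p = 0.0631, 0.0629 and 0.101 by edgeR). Lrp1 fell short at 0.22 (edgeR quasi-likelihood adjusted p = 0.0562) and was called in 11 of 43 alternatives.

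**Figure D3:**
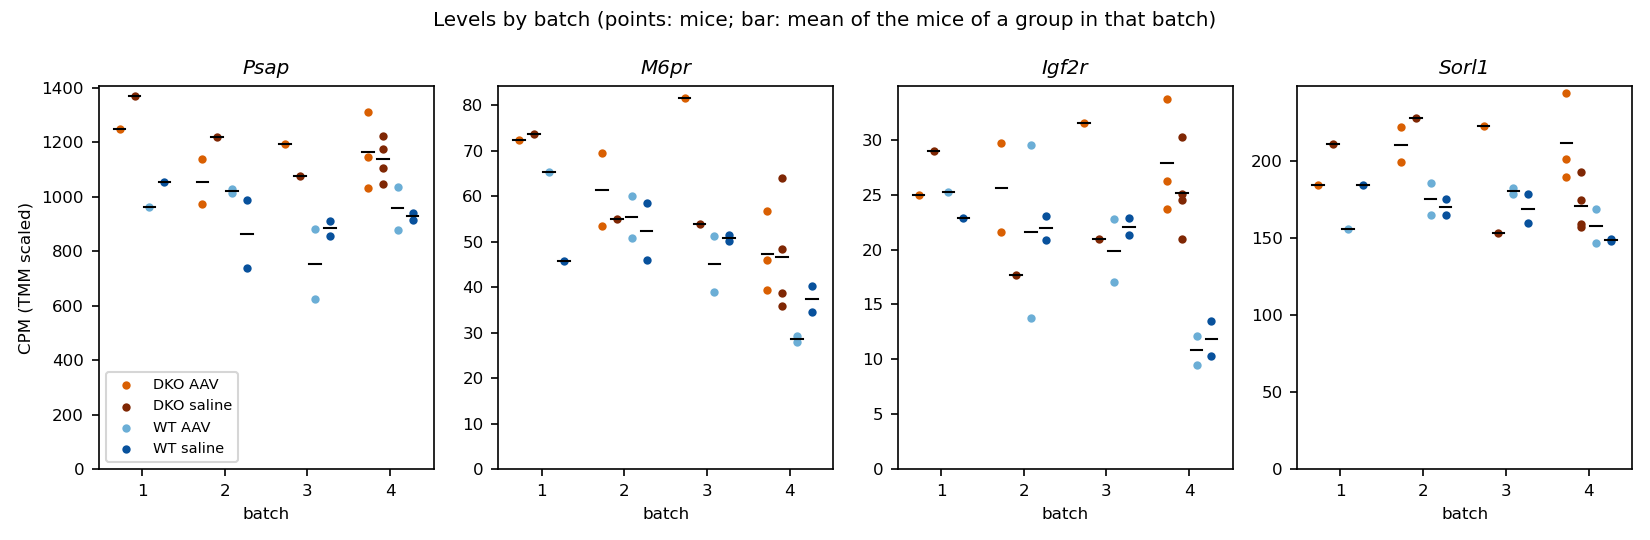
CPM of Psap, M6pr, Igf2r and Sorl1 in each mouse (points) by batch, with groups side by side and a bar at the mean of the mice of a group in a batch. Psap means of the DKO groups lie above those of the WT groups given the same treatment in every batch, M6pr has its lowest mean in batch 4 in every group, and the Igf2r gap is widest in batch 4, where WT mice are at 9.53 to 13.5 CPM.

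Within DKO mice, vector against saline left the 10 genes without a call, where 3.02% of all genes tested were called. Log2 fold changes were -0.30 to 0.19 with a median of 0.00, 5 above and 5 below 0, none of the 10 had an unadjusted p under 0.05, and the lowest adjusted p was 0.277 by edgeR's quasi-likelihood test, for Sorl1. DESeq2 and limma-trend called 0 of the 10 as well. Psap, at 973 to 1313 CPM in DKO AAV mice and 1046 to 1370 CPM in DKO saline mice, had a log2 fold change of -0.03 with a 95% interval of -0.21 to 0.16. The 0.34 by which DKO saline mice exceeded WT saline mice had a 95% interval of 0.15 to 0.53. Both values rest on the same DKO saline mice, and the intervals overlap in size. For vector against saline in DKO mice, the intervals of other members were -0.42 to 0.02 for Lrp1, -0.14 to 0.35 for M6pr, -0.17 to 0.55 for Igf2r, 0.00 to 0.36 for Sorl1 and -0.73 to 0.12 for Nagpa.

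DKO AAV mice, set against WT saline mice, were higher at 3 of 10 genes, where 5.25% of all genes were called in either direction and 1.43% higher. This comparison shares its DKO AAV mice with the vector-treated genotype comparison and its WT saline mice with the saline one. Sorl1 was higher by 0.35 ± 0.09 SE (log2; edgeR quasi-likelihood adjusted p = 0.0197), M6pr by 0.44 ± 0.13 (adjusted p = 0.0343) and Psap by 0.31 ± 0.09 (adjusted p = 0.0415). Igf2r had a larger log2 fold change of 0.55 but an adjusted p of 0.0918 in this edgeR test. Leaving out DKO AAV replicate 4, the mouse of lowest RIN, ended all 3 calls, and so did RIN as a term. M6pr was also lost without DKO AAV replicates 2 or 5 or WT saline replicates 1, 3, 4 or 7, and Psap without DKO AAV replicates 1, 3, 6 or 7, WT AAV replicate 6 or WT saline replicates 1, 2, 4 or 7, at adjusted p of up to 0.186 over all these omissions.

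Within WT mice, vector against saline called 0% of the genes tested by edgeR's quasi-likelihood test, with 254 genes at an unadjusted p under 0.05, none of them among the 10. DESeq2 and limma-trend also called 0. Psap averaged 918 ± 145 CPM in WT AAV mice and 915 ± 99.5 CPM in WT saline mice (SD, n = 7 each), a log2 fold change of 0.00 with a 95% interval of -0.19 to 0.19. Sort1 had the smallest p of the 10, at 130 ± 22.7 CPM in WT AAV mice and 115 ± 14.5 CPM in WT saline mice, with a log2 fold change of 0.19 (unadjusted p = 0.0714 by edgeR's quasi-likelihood test). The difference between the vector's effects in DKO and in WT mice was called for 0.018% of genes and for none of the 10, whose values ran from -0.28 to 0.26 with a lowest adjusted p of 0.605. Female against male mice called 0.045% of genes and none of the 10. M6pr had the lowest unadjusted p there, 0.0242 by edgeR's quasi-likelihood test, at 47.2 ± 13.3 CPM in females and 55.5 ± 12.9 CPM in males (SD, n = 14 each).

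The receptors' partners were read from 5 lists of 60 other genes of the route, of which 56 were tested. DKO saline mice, set against WT saline mice, had 10 of the 56 higher and none lower, where 3.62% of all genes were called higher, with a median log2 fold change of 0.17. Hydrolases of sphingolipids, the cargo of the receptors and the enzymes that saposins activate, gave 3 of 8 higher: Glb1 by 0.89 ± 0.20, Gla by 0.73 ± 0.20 and Hexa by 0.61 ± 0.11 (log2 ± SE, edgeR quasi-likelihood adjusted p = 0.0050, 0.0224 and 0.000424). Carriers that work without mannose-6-phosphate or at the exit from the endoplasmic reticulum gave 3 of 6, namely Scarb2, the receptor of glucocerebrosidase, by 0.45, Cln8 by 0.57 and Surf4, a cargo receptor of the early secretory pathway, by 0.42. Among retromer, sorting nexin and WASH genes, which return receptors from endosomes, 3 of 17 were higher, with Snx1 by 0.61, Vps35, the core of retromer, by 0.35 and Snx5 by 0.32. The clathrin adaptor list gave 1 of 13, clathrin heavy chain Cltc by 0.40, and the other VPS10 and LDL receptor family genes gave 0 of 12. Of the 10 calls, 7 held whichever library was left out. Other alternatives ended some of those 7, with Vps35 lost in 7 of 44, Surf4 in 5, Cltc in 2 and Glb1 in 1 of 43. Hexa, Scarb2 and Snx1 were called in all 44. The number of partner genes called ran from 3 without batch 2 to 19 with library totals as scaling. Snx5 was lost without DKO saline replicates 2 or 3 or WT saline replicate 6, Gla without DKO saline replicates 2 or 3 or WT saline replicate 2, and Cln8 without DKO saline replicates 2, 3, 4 or 6 or WT saline replicates 1, 2, 3 or 6.

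Levels of some of these called genes are given as examples. Snx1 ran from 110 to 177 CPM in DKO saline mice, against 74.0 to 108 CPM in WT saline mice, with no overlap. Cltc ran from 545 to 747 CPM in DKO saline mice, against 457 to 511 CPM in WT saline mice, also without overlap. Such separation did not hold for all called genes. Hexa overlapped, at 79.0 to 145 CPM in DKO saline mice, against 59.2 to 99.9 CPM in WT saline mice. Glb1 also overlapped, at 11.1 to 28.3 CPM in DKO saline mice, against 8.36 to 14.1 CPM in WT saline mice. All of these genes were called in this same comparison, and the share of all genes tested that separate the groups was not counted.

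Within DKO mice, 2 of the 56 partners were lower with the vector and 1 higher, near the 3.02% of all genes called in this comparison (245 lower and 91 higher). Hexa fell by 0.51 and was at 69.5 to 94.8 CPM in DKO AAV mice, against 79.0 to 145 CPM in DKO saline mice (edgeR quasi-likelihood adjusted p = 0.0075). Snx5 fell by 0.36, and Vldlr, an LDL receptor family member that binds reelin, was higher by 0.57, at 37.9 to 59.9 CPM in DKO AAV mice, against 25.7 to 39.0 CPM in DKO saline mice. Without DKO saline replicate 2 none of these 3 passed, with adjusted p of 0.0640 for Hexa, 0.133 for Snx5 and 0.0877 for Vldlr. Snx5 was also lost without DKO saline replicate 3 or DKO AAV replicates 4 or 5. WT mice had 0 of 56 called for vector against saline. In DKO AAV mice against WT AAV mice, 5 were higher (Lrp11, Lrp12, Vldlr, Snx2 and Cltc) and 2 lower (Ap1s1 by -0.37 and Gm2a by -0.39, log2), where 5.92% of all genes were called. The 5 higher ones had log2 fold changes of 0.28 to 0.44. Of these 7, the call of Lrp11 held whichever library was left out, though it was lost in 2 of 44 alternatives.

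**Figure D4:**
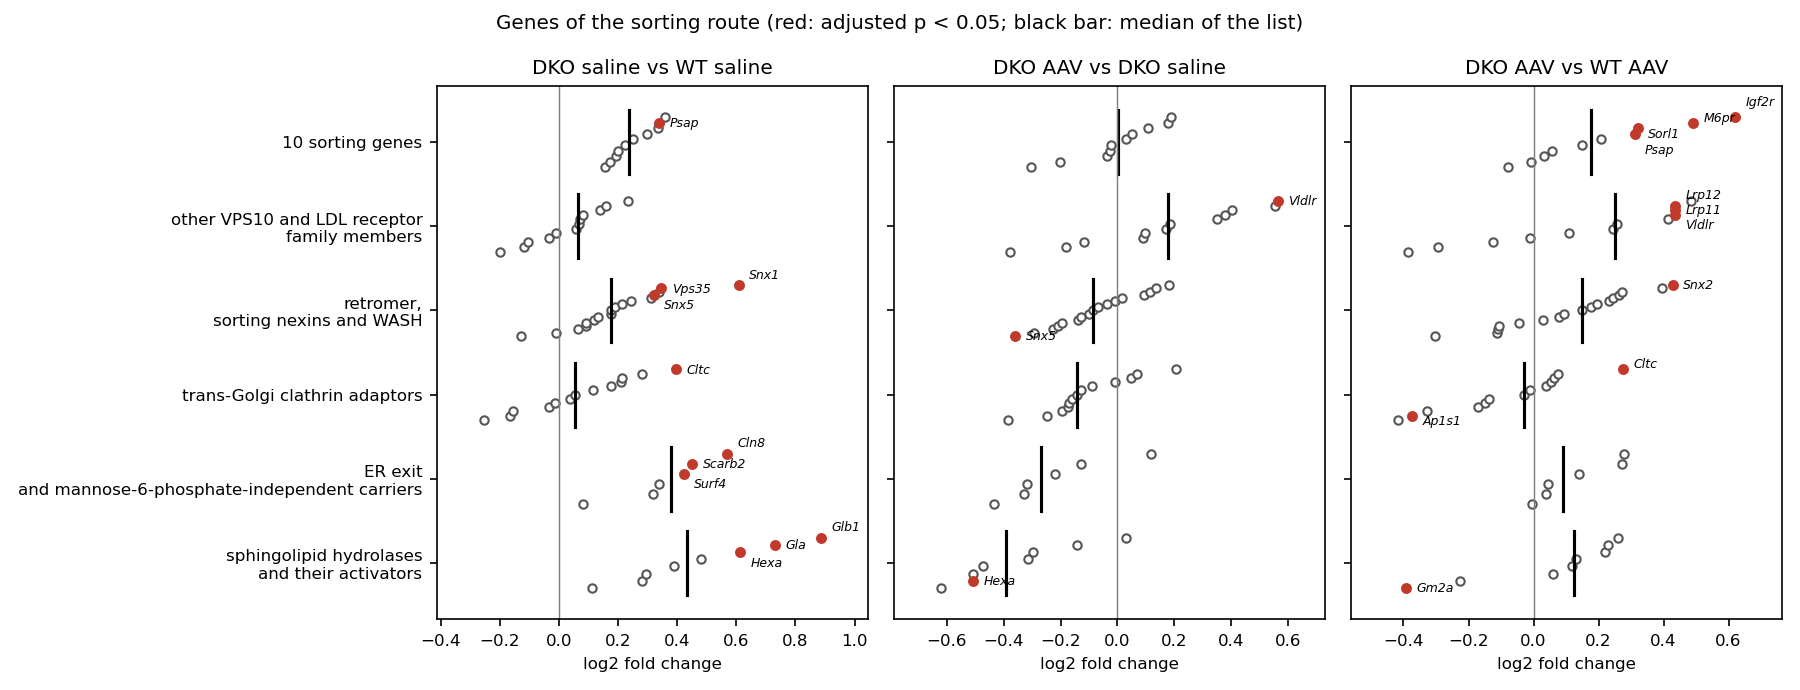
Log2 fold changes of the 10 sorting genes and of 5 lists of partner genes (points, 1 per gene) for genotype in saline mice (left), vector in DKO mice (middle) and genotype in vector-treated mice (right); red points have an adjusted p under 0.05 and bars mark list medians. The hydrolase list has 3 red points above 0 in the first panel and 1 below 0 in the second, while the 10 sorting genes have 1 red point in the first, none in the second and 4 in the third.

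Markers of several cell types differed with genotype and treatment. The summed level of the microglial ones was 416 to 557 CPM in DKO AAV mice and 544 to 980.3 CPM in DKO saline mice, against 355 to 444 CPM in WT AAV mice and 313 to 508 CPM in WT saline mice. Of the 7 markers, 4 were higher in DKO saline mice when set against WT saline mice and 3 were lower in DKO AAV mice when set against DKO saline mice. P2ry12, a marker of resting microglia, had a log2 fold change of 0.47 in this second comparison (edgeR quasi-likelihood adjusted p = 0.0520). Astrocyte markers summed to 4671 to 6037 CPM in DKO AAV mice and 5340 to 6692 CPM in DKO saline mice, against 4510 to 5971 CPM in WT AAV mice and 4855 to 5751 CPM in WT saline mice. Of the 7, only Gfap and Aqp4 were called higher in DKO mice, at 4.89 and 1.95 times the WT level with saline. With the vector they were at 2.09 and 1.47 times. The median log2 fold change of the 7 was 0.00 with saline, with 4 above 0. It was -0.09 with the vector, with 3 above 0. Gfap fell by 1.30 on the log2 scale in DKO AAV mice set against DKO saline mice. Neuronal markers summed to 3405 to 4398 CPM in DKO AAV mice and 2694 to 3899 CPM in DKO saline mice, against 3070 to 3841 CPM in WT AAV mice and 2895 to 3550 CPM in WT saline mice. Of those 7, only Rbfox3 was called lower in DKO saline mice set against WT saline mice. The median log2 fold change of the 7 was -0.06 there, with 3 above 0. In DKO AAV mice set against DKO saline mice Rbfox3 was called higher, and the median of the 7 was 0.33, with 6 above 0. Oligodendrocyte markers summed to 5017 to 7539 CPM in DKO AAV mice and 4772 to 9866 CPM in DKO saline mice, against 6312 to 10944 CPM in WT AAV mice and 6173 to 11984 CPM in WT saline mice, with 1 of 7 called lower in the saline comparison of genotypes. The mitochondrial share of counts averaged 16.3% in DKO AAV mice and 15.8% in DKO saline mice, against 19.0% in WT AAV mice and 20.1% in WT saline mice. The part of these shifts in the results for the sorting genes was not tested.

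The scaling of libraries bears on all genotype values. With library totals in place of TMM factors, the median of all genes was 0.12 for DKO saline mice set against WT saline mice, with 84.5% of called genes higher (52.5% with TMM factors). It was 0.15 for DKO AAV mice set against WT saline mice, with 83.7% of called genes higher (27.2% with TMM factors), and 0.12 for DKO AAV mice set against WT AAV mice, with 79.4% higher (33.1% with TMM factors). Of the 10 sorting genes 5, 6 and 4 were then called higher in these comparisons, with medians of 0.35, 0.37 and 0.29, and no called gene among them was lower under either scaling.

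Psap was the member for which genes of like pattern were sought, being the one called in DKO saline against WT saline mice. By the mean absolute difference in centred log2 CPM over 28 libraries, among 4811 genes of similar spread, the closest were Pcbp1 (0.12), an RNA-binding protein gene, Tm9sf2 (0.13), and Tpp1 (0.14), which codes for a lysosomal tripeptidyl peptidase, beside a median of 0.27 over all those genes. Tpp1 averaged 109 ± 8.43 CPM in DKO AAV mice and 118 ± 10.6 in DKO saline mice, against 91.3 ± 11.2 in WT AAV mice and 95.9 ± 9.94 in WT saline mice (SD, n = 7 each).

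Overlapping gene models may limit the reading of 3 members, since it is not stated whether the counting used strand. The 3' end of Gnptg shares 1113 bases with Unkl on the other strand, which had 1 to 9 counts per library, and that of Gnptab lies over an antisense model with 0 counts. Igf2r shares 28354 bases at its 5' part with the antisense transcript Airn, which had 2 to 16 counts, beside 11 to 64 counts of Igf2r itself. That shared part does not hold the 3' end of Igf2r, near which tags are read.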

How the data were processed

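Frozen brain powder gave the RNA, and QuantSeq FWD 3' libraries carried molecular identifiers, per the labels' protocols. The submitters' processing notes name STAR, GRCm38.p6, edgeR 3.40.2, R 4.2, MultiQC 1.0 and FastQC 0.11.5. Neither counter nor strand setting is stated there.

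The authors deposited raw counts per gene, rounded to at most 2 significant digits (100% of 1506428 values). A second deposited sheet held a normalized signal, counts over library total times normalization factor, used only in the limma alternative. The deposited sample sheet gave library totals, normalization factors as a ratio and RNA concentration.

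edgeR 4.0.16 in R 4.3.3 fitted the counts of all 28 libraries with TMM scaling and group, sex and batch as terms, after filterByExpr (minimum count 10, minimum total 15). glmQLFTest gave each contrast, with Benjamini-Hochberg adjustment over 11123 genes and a threshold of 0.05. The SE is the log2 fold change over the square root of F. The biological coefficient of variation was 13.6%. Groups, sex, batch and RIN (8.3 to 9.9) came from the labels. Replicates are separate mice, and the 84 pairs within groups differed by more than sampling noise (chi-square, highest p 7.6e-06). CPM in the text was computed from the deposited counts. The fit was checked on simulated counts.

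The 10 genes, the partner and marker lists and the comparisons were chosen with earlier results of these data known. Named genes are the 10, Grn and Tmem106b, up to 4 called genes of each partner list with the smallest p, and the 3 genes most like a called member. Partner genes called in the comparisons of vector-treated mice complete small counts and were named after their values were seen. One listed gene is not reported here and is left out of the lists' counts and sums. The genotype difference averaged over treatments was added after the values had been seen. Promoter windows are RefSeq's. Alternatives were limma 3.58.1, DESeq2 1.42.0, other scalings, filters, terms, and libraries or batches left out.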

Additional observations from a re-analysis of the deposited data

Results flagged for a closer look

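Psap in WT AAV replicate 5 was the lowest value of its group, at 625.2 CPM against 879 to 1036 CPM in the other 6 WT AAV mice. Its gap to the next mouse was 0.619 of the group's range, above the 0.568 allowed for 7 values. This was the 1 such value among 40 tests of a gene in a group, and chance alone gives about 1 in 20. Without that mouse the log2 fold change of Psap in DKO AAV against WT AAV mice was 0.24 (edgeR quasi-likelihood adjusted p = 0.0858), and the cause of the low value was not tested.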

How the results depend on the processing

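Under 44 alternatives no called value of the 10 genes changed sign. None of the 10 was called in any alternative for vector against saline in either genotype, for the difference of the vector's effects or for sex. For DKO saline against WT saline, where 1 was called, the number was 5 with library totals as scaling and 0 with only the groups compared in the fit, with RNA concentration as a term, without batch 1, without batch 2 and without the 3 libraries rich in Prl and Gh. For DKO AAV against WT saline, where 3 were called, it was 6 with library totals, 1 without the sex and batch terms, with RNA concentration as a term, without batch 1 and without the Prl-rich libraries, and 0 with RIN as a term and without batches 2, 3 or 4. For DKO AAV against WT AAV, where 4 were called, it was 0 without the sex and batch terms and without batches 3 or 4, 1 with RIN as a term, and 2 without the 3 libraries with little cerebellar or striatal RNA and without the Prl-rich libraries. For the genotype difference averaged over treatments, where 4 were called, it ran from 2 without batch 4 to 8 with library totals. Leaving out 1 library at a time gave 0 to 2, 0 to 3, 0 to 4 and 4 to 5 called genes in these comparisons, in that order, and 0 in those with none. The causes were not tested; leaving out libraries or batches also leaves fewer samples.

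Over all genes the number called ran from 243 to 1183 for DKO saline against WT saline (767 in the fit reported), 23 to 710 for DKO AAV against DKO saline (336), 189 to 1217 for DKO AAV against WT saline (584), 219 to 992 for DKO AAV against WT AAV (659), 0 to 10 for WT AAV against WT saline (0) and 0 to 156 for the difference of the vector's effects (2). The number of partner genes called ran from 0 to 8 for DKO AAV against DKO saline (3 in the fit reported). For DKO AAV against WT AAV it ran from 1 to 12 (7). A mean count of at least 50 removed Igf2r, Sorcs2 and Nagpa from the test. The fit of only the groups compared gives no value for the difference of effects or for sex. No paired analysis was possible because replicate numbers only name mice in sample order and pair none across groups; batch is a term of the fit. Depth limits Nagpa and Igf2r most, at 7 to 50 and 11 to 64 counts per library.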
